A study of Xenopus laevis with 4 samples.

Results

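Basal cells form the inner layer of the amphibian epidermis. Here 3 genes taken as basal cell genes, tp63.S, vim.L and nectin2.L, were followed over caps of prospective ectoderm that carried different injected RNAs. How far they report on basal cells in these caps was not tested. The members were all probe sets whose only platform symbol was one of these gene names, which gave 3 of 11303 named gene copies and 4 of 32539 non-control probe sets: 2 for tp63.S (Entrez Gene 399036), 1 for vim.L (386601) and 1 for nectin2.L (447468). The suffixes L and S mark the long and short homeologous copies of a gene in the allotetraploid frog Xenopus laevis. The homeologs tp63.L (373640) and vim.S (386600) had 1 probe set each on the array and are given beside the members.

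Xenopus laevis embryos, whose strain and genotype the labels do not give, received RNA for ICD, DBM or HMM at the 2-cell stage. Caps were explanted at stage 9 to 10, kept on fibronectin in Danilchik's medium with 0.1% BSA, and taken for total RNA at an age that matches stage 12. ICD caps gave 2 arrays, DBM caps 1 and HMM caps 1, and no array of caps without injected RNA was analysed here. In this field ICD stands for the Notch intracellular domain, the form that signals without ligand, and DBM for a DNA-binding mutant of Su(H), the transcription factor that Notch acts through. The labels do not spell out HMM. The series title names early Notch targets that bear on multiciliate cell fate, so the comparison of ICD with DBM and HMM asks which transcripts differ between caps with active Notch and caps with the other RNAs. The labels leave unsaid if the ICD caps were from different clutches, so the p-values reflect the scatter of these arrays alone, part or all of which may be technical.

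As background, Notch signaling in the frog epidermis acts by lateral inhibition in the inner layer, where it limits how many cells become multiciliate cells or ionocytes, and cells that take neither path remain as basal progenitors under the outer layer. tp63 encodes a transcription factor of the p53 family that is known in vertebrate epidermis for keeping basal cells in a progenitor state. vim encodes vimentin, an intermediate filament protein of mesenchymal, neural and other progenitor cells. nectin2 encodes a cell adhesion molecule of the immunoglobulin superfamily that binds the actin linker afadin at adherens junctions.

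Values are MAS5 signals, rescaled so that the arrays share a trimmed mean. Before rescaling that mean was 150.7 on ICD replicate 1 and 376.8 to 408.9 on the other arrays. Relative to the mean over the remaining arrays, ICD replicate 1 had its poly-A spike-ins at 32.0% and its hybridization spike-ins at 108%. Differences and folds are on the scale of log2(signal + 17.99), so they are not ratios of the signals and understate the change of dim probe sets. They were tested with limma over 19523 probe sets whose mean signal was at least 41.37. The main contrast set ICD against the average of the DBM and HMM means and gave 3.93% of probe sets past an adjusted p of 0.05, of which 1.90% of all probe sets were higher with ICD and 2.04% lower. All 4 member probe sets were tested and all 4 were among those higher with ICD. But 1 of them, the dimmer of tp63.S, passed the filter only through the ICD arrays, as did 58 of the 370 higher probe sets. The members were chosen with earlier results of these data known, so their count cannot be set evenly against these shares. For the counts at an unadjusted limma p under 0.05 given below, 2761 of all 19523 probe sets reached that level in the main contrast, in either direction. The ectoderm label was checked on the 22 copies of epidermal ectoderm genes on the array, among them tfap2a, dlx3, gata2 and epcam. All 22 were tested and 0 lay under the filter level on any array, the lowest signal being 74.2 for cdh1.S and the median of their lowest signals 2023. The explants are whole pieces of tissue, so more cells of a type and more RNA per cell cannot be told apart.

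tp63.S was measured by a pair of probe sets built on the same sequence record, so they are not independent. The first, whose name ends in _s_at (the Affymetrix mark for probes shared by several transcripts), had signals of 325 and 462 on the ICD arrays, 26.6 on HMM and 72.7 on DBM. Both ICD arrays lay above DBM and HMM, and the HMM signal lay under the filter level. It rose 6.38-fold in the main contrast, a log2 difference of 2.67 ± 0.33 (SE; limma, adjusted p = 0.00946). The second, ending in _at, was dimmer, with signals of 99.7 and 160 on the ICD arrays, 7.33 on HMM and 26.9 on DBM. Here too the groups did not overlap, and the HMM and DBM signals were both under the filter level. Its log2 difference was 2.10 ± 0.36 (SE; limma, adjusted p = 0.0276), and no fold is given for it. Since it passed the filter only through the ICD arrays, it had to differ, and its call is no support beside that of the _s_at probe set. The ICD means were 393 ± 96.8 (SD, n = 2) for the _s_at and 130 ± 42.7 (SD, n = 2) for the _at probe set, and replicate 2 was the higher array in each.

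The size of the tp63.S difference depended on the offset, from 2.76 on the log2 scale at the smallest offset to 1.17 at the largest for the _at probe set, and 1.95 at the largest for the _s_at probe set. The _s_at call held without DBM (log2 difference 3.19) and without HMM (2.16). Without DBM the 1 control left was HMM, whose signal lay under the filter level. There the probe set passed the filter only through the ICD arrays, so that call is no support. The call also held when DBM and HMM were merged into 1 control group (limma, adjusted p = 0.0431). An ICD array can be dropped with a spread kept only in this merged fit, where the call was lost without ICD replicate 1 (2.91, adjusted p = 0.0744) or ICD replicate 2 (2.44, adjusted p = 0.145). The _at call was lost without DBM (2.52, adjusted p = 0.0518), without HMM (1.69, adjusted p = 0.140), in the merged fit (adjusted p = 0.0676), and in the merged fit without ICD replicate 1 (2.38, adjusted p = 0.0921) or ICD replicate 2 (1.81, adjusted p = 0.218). The homeolog tp63.L had signals of 44.4 and 78.6 on the ICD arrays, 8.80 on HMM and 22.5 on DBM. Its order over the arrays was that of tp63.S, but its mean signal of 38.6 lay just under the filter level and it was not tested. With no filter its difference was 1.24 ± 0.35 (SE) and did not pass (limma, adjusted p = 0.215).

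**Figure D1:**
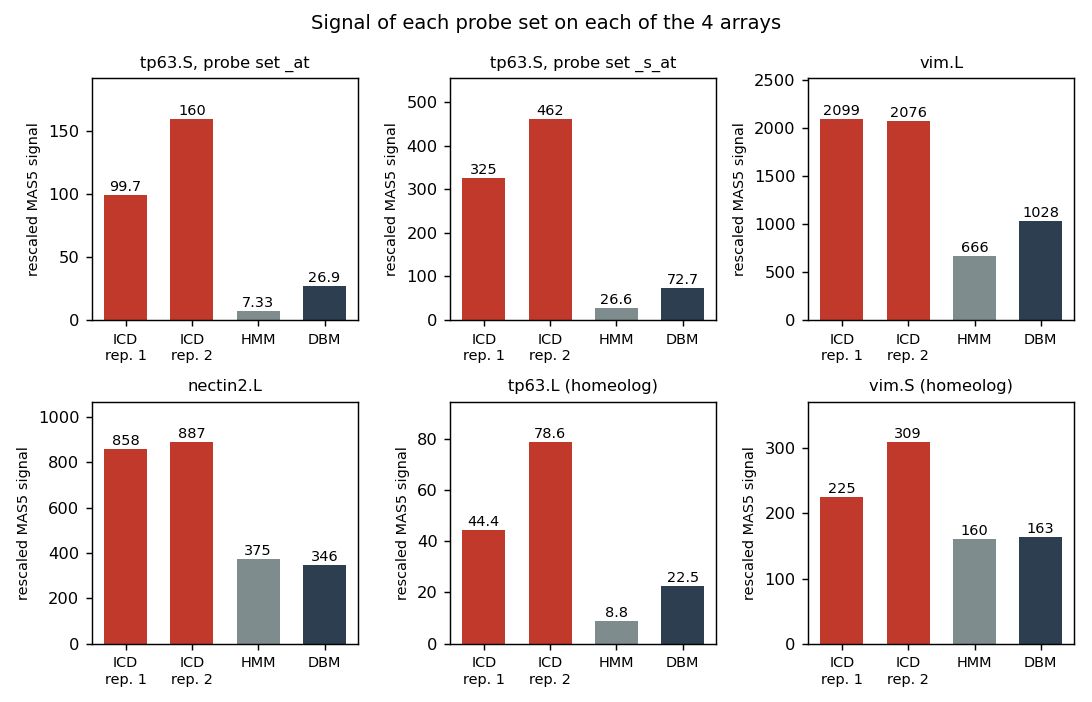
Rescaled MAS5 signal (vertical axis, linear, a separate scale in each panel) of each probe set of tp63.S, vim.L and nectin2.L and of the homeologs tp63.L and vim.S on the 4 arrays (horizontal axis). Bars are single arrays, so no error bar is drawn. In every panel both ICD bars stand above the HMM and DBM bars.

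vim.L had signals of 2099 and 2076 on the ICD arrays, 666 on HMM and 1028 on DBM. The ICD arrays were nearly equal, with a mean of 2088 ± 16.9 (SD, n = 2), and DBM stood between them and HMM. vim.L rose 2.49-fold with ICD (log2 difference 1.32 ± 0.21 SE; limma, adjusted p = 0.0201). The call held without DBM (1.62, adjusted p = 0.0350) and was lost without HMM (1.01, adjusted p = 0.126), in the merged fit (adjusted p = 0.0684), and in the merged fit without ICD replicate 1 (1.31, adjusted p = 0.205) or ICD replicate 2 (1.32, adjusted p = 0.235). It was also lost without the intensity trend of the variance (adjusted p = 0.0703).

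The other copy, vim.S, had signals of 225 and 309 on the ICD arrays, 160 on HMM and 163 on DBM. Its ICD arrays were again the higher ones, but the gap of ICD replicate 1 to DBM was 0.43 on the log2 scale and the ICD arrays themselves were 0.42 apart. Its difference of 0.65 ± 0.30 (SE) did not pass (limma, adjusted p = 0.423), with an interval (95%) of -0.07 to 1.37. The interval for vim.L ran from 0.83 to 1.80 and overlapped it, and the difference between the copies was not tested. Probes for one homeolog can also bind transcripts of the other.

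nectin2.L had signals of 858 and 887 on the ICD arrays, 375 on HMM and 346 on DBM. The ICD mean was 872 ± 20.8 (SD, n = 2), and HMM and DBM lay close together. It rose 2.35-fold (log2 difference 1.23 ± 0.22 SE; limma, adjusted p = 0.0305). The call held in the merged fit (adjusted p = 0.0431) and was lost with no filter (adjusted p = 0.0602), without the intensity trend (adjusted p = 0.0822), without DBM (1.18, adjusted p = 0.0991) and without HMM (1.29, adjusted p = 0.0662). The merged fit lost it when ICD replicate 1 (1.26, adjusted p = 0.200) or ICD replicate 2 (1.21, adjusted p = 0.249) was dropped. No probe set carried the symbol of the other copy as its only name.

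Both ICD arrays stood above DBM and HMM for all 4 member probe sets, a separation shown by 19.3% of all tested probe sets. Since the members were chosen with earlier results known, this is no even comparison either. The _at probe set of tp63.S passed the filter only through the ICD arrays, so its separation and its calls are no support. It is also not independent of the _s_at probe set. Against HMM alone, 3 of the 4 member probe sets passed, this one included (1.74% of probe sets passed, 1.23% as higher). They were tp63.S by its _s_at probe set (log2 difference 3.19 ± 0.41 SE; limma, adjusted p = 0.0160) and by its _at probe set (2.52 ± 0.44, adjusted p = 0.0471), and vim.L (1.62 ± 0.25, adjusted p = 0.0323). With ICD signals like that of HMM, the mean of the _s_at probe set would have lain under the filter level. Its call against HMM in the filtered fit is thus no support either. With no filter it passed against HMM too. nectin2.L did not pass against HMM (1.18 ± 0.27, adjusted p = 0.103). Against DBM alone, where 2.32% of probe sets passed, 0.840% as higher, none of the 4 did at adjusted p. The share of all probe sets at an unadjusted limma p under 0.05 against DBM was not counted, so the members are not counted at that level here. The nearest to an adjusted p of 0.05 was tp63.S by its _s_at probe set (2.16 ± 0.41, adjusted p = 0.0519), which passed after quantile normalization (adjusted p = 0.0291). nectin2.L stood at 1.29 ± 0.27 (adjusted p = 0.0684), vim.L at 1.01 ± 0.25 (adjusted p = 0.120) and tp63.S by its _at probe set at 1.69 ± 0.44 (adjusted p = 0.135). These contrasts share the ICD arrays, and they differ by the difference of DBM from HMM.

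**Figure D2:**
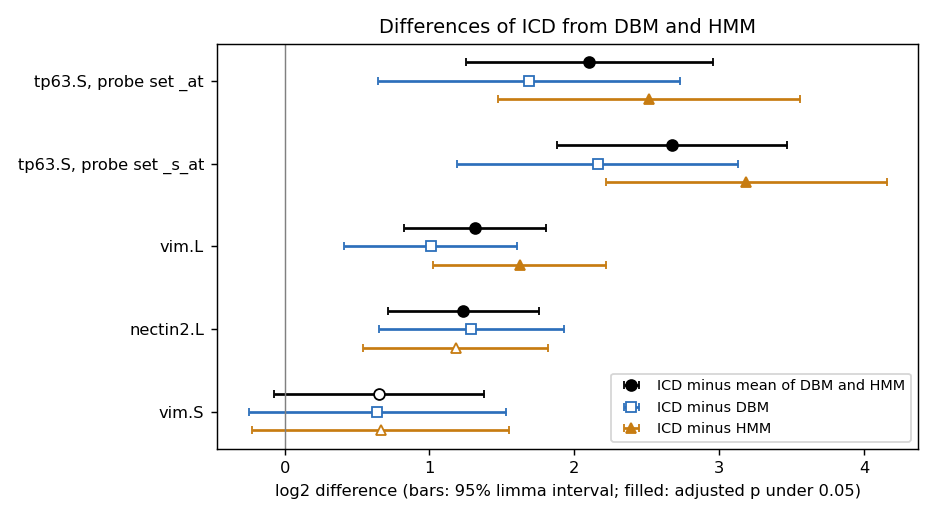
Log2 differences of ICD from the averaged DBM and HMM (circles), from DBM (squares) and from HMM (triangles) on the horizontal axis, for the tested probe sets of the members and of vim.S on the vertical axis. Bars are 95% limma intervals and filled symbols have an adjusted p under 0.05. All 4 member circles are filled, the squares are open throughout, and the vim.S intervals include 0.

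That difference of DBM from HMM did not pass for any member. In the same limma fit, a contrast added after the data were seen, which borrows its spread from the ICD pair, called 0 of 19523 probe sets (0%; 966 at an unadjusted p under 0.05). For tp63.S by its _s_at probe set DBM minus HMM was 1.03 ± 0.47 (SE, log2; adjusted p = 0.912), with an interval (95%) of -0.09 to 2.14, and 3.86% of tested probe sets had DBM over HMM by at least 2-fold on this scale. By the _at probe set, with both signals under the filter level, it was 0.83 ± 0.51 (interval -0.38 to 2.03). For vim.L it was 0.61 ± 0.29 (interval -0.08 to 1.30), and the DBM signal was 1.54 times that of HMM. For nectin2.L the sign was the other one, at -0.11 ± 0.31 (interval -0.84 to 0.63). The ICD arrays, for scale, were 0.48 apart for the _s_at probe set, 0.60 for the _at probe set, -0.02 for vim.L and 0.05 for nectin2.L (replicate 2 minus replicate 1, log2). For tp63.S, ICD replicate 2 and DBM were thus the higher array of their kind. Over the 19523 tested probe sets the difference of ICD replicate 2 from replicate 1 and that of DBM from HMM correlated at r = 0.64, given as a description. The ratio of the 3′ to the 5′ control probe set of gapdh, a sign of RNA quality, was 1.93 on ICD replicate 1 and 1.61 on HMM, against 1.30 on ICD replicate 2 and 1.29 on DBM. The same ratio for ef1a was 0.292 and 0.194 against 0.0661 and 0.395 and did not separate these pairs. Nor did that of actin, at 6409 and 1523 against 2662 and 7775. The ratios were thus of very different size between the controls, and how far any of them measures RNA quality here was not tested. The labels name no batch, and the part of RNA quality or of this shared difference in the tp63.S values was not tested. The 4 possible differences of an ICD array from a DBM or HMM array ran from 1.92 to 3.43 for the _s_at probe set, from 1.39 to 2.81 for the _at probe set, from 1.00 to 1.63 for vim.L and from 1.16 to 1.31 for nectin2.L.

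**Figure D3:**
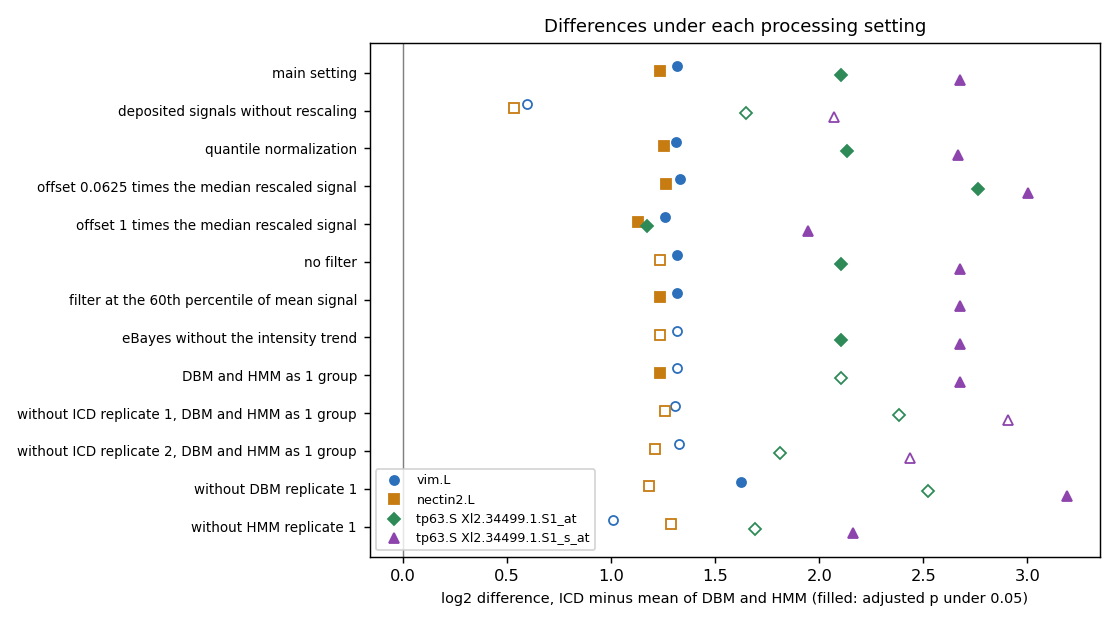
Log2 difference of the main contrast (horizontal axis) for each member probe set under the main setting and each processing alternative (vertical axis). Filled symbols have an adjusted p under 0.05. All points lie above 0, and the lowest are those of nectin2.L and vim.L on deposited signals without rescaling, at 0.53 and 0.60.

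Other genes of basal epidermal cells were taken from a list of 24 genes that includes the 3 members, which had 17 gene copies on the array and 12 tested. Of these 12, 5 rose, 0 fell and 7 missed the threshold (7 higher and 0 lower at an unadjusted limma p under 0.05), where 2.22% of 7989 named gene copies rose and 2.58% fell. Since the members count among the 5, the list is no independent support for them. The list was also chosen with earlier results of these data known, so its share cannot be set evenly against the 2.22%. Besides the members, sox11.S, a SoxC transcription factor gene of progenitor cells, had signals of 2731 and 3943 with ICD, 180 with HMM and 378 with DBM and rose 11.8-fold (log2 difference 3.56 ± 0.25 SE; limma, adjusted p = 0.00123). Its second probe set gave 3.34 ± 0.31. fgfr2.L, which encodes a receptor for fibroblast growth factors, had 886 and 1043 with ICD, 363 with HMM and 414 with DBM and rose 2.42-fold (adjusted p = 0.0303), but its second, dimmer probe set stood at 0.41 ± 0.23 (adjusted p = 0.540).

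The adhesion receptors of the basal cell surface were among the 7 copies that did not pass. itga3.L, an integrin subunit that binds laminin, had signals of 402 and 525 with ICD, 158 with HMM and 237 with DBM (log2 difference 1.17 ± 0.27 SE; limma, adjusted p = 0.0763). cd44.L, a hyaluronan receptor, stood at 1.02 ± 0.35 (adjusted p = 0.218). The integrin beta subunit copies itgb1.L and itgb1.S stood at -0.25 and 0.23, and the dystroglycan copies dag1.L and dag1.S both at 0.41. The median over the 12 copies was 1.10, beside -0.02 over all named gene copies tested. The count of 5 became 3 without DBM, 2 without HMM and 4 in the merged fit, and there 1 without ICD replicate 1 and 0 without ICD replicate 2 (5 of 11 at an unadjusted limma p under 0.05). It was 3 with no filter and 2 without the intensity trend.

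**Figure D4:**
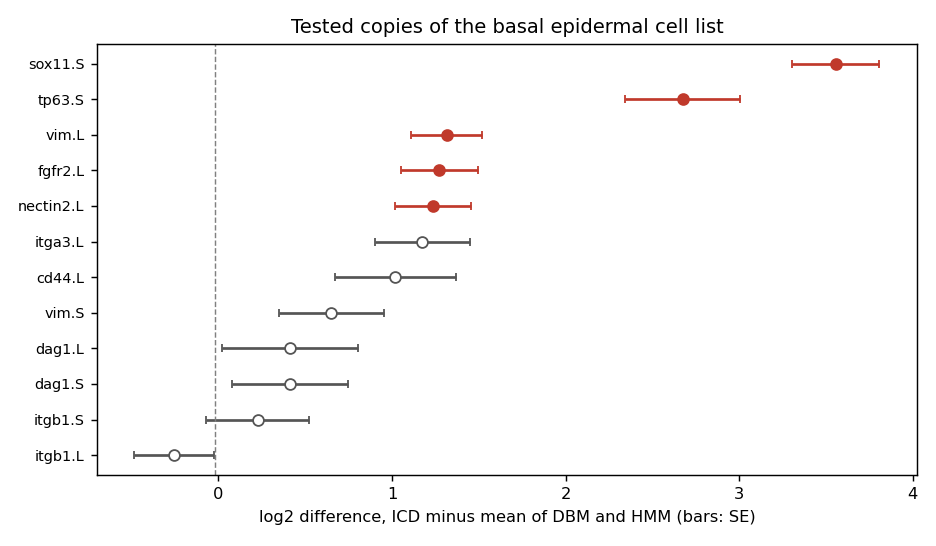
Log2 difference of the main contrast (horizontal axis, bars are SE) for the 12 tested gene copies of the basal epidermal cell list (vertical axis). Filled red points passed an adjusted p of 0.05, and the dashed line is the median of all tested named gene copies, at -0.02. The 5 red points lie between 1.23 and 3.56.

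Some markers of other cells moved in the same comparison. Of 7989 named gene copies 2.22% rose and 2.58% fell, given for scale beside each list count in this and the next paragraph. These lists too were chosen with earlier results of these data known, so their counts cannot be set evenly against those shares. Of 18 tested copies of neural plate and crest genes 8 rose and 0 fell (13 and 0 at an unadjusted limma p under 0.05), 2 of the 8 with DBM and HMM both under the filter level. Their summed signal over 28 copies was 20164 and 22538 with ICD, 12297 with HMM and 12758 with DBM. The largest single part of each sum came from pax3.L, which did not pass (9772 and 7105 with ICD, 8253 with HMM and 7697 with DBM). vim and sox11 are also known as genes of neural progenitors. The 8 risers were irx1.L (log2 difference 2.98), zic1.S (2.59), sox3.S (2.48), zic2.L (2.10), otx2.L (1.46), sox8.L (2.29), sox9.L (1.86) and sox9.S (3.29). Of these, sox8 and sox9 are also known in the crest. The sox9 copies are the 2 with DBM and HMM both under the filter level, so they had to be higher with ICD. Among the 10 copies that did not pass were pax3.L at 0.06 and msi1.S at -0.25. The homeologs irx1.S at 1.04, sox3.L at 0.98, zic2.S at 0.93 and otx2.S at 0.09 did not pass either. The copies of the crest genes foxd3, snai2 and sox10 were under the filter level and not tested. Of 14 tested multiciliate cell copies 13 fell, 3 of them with both ICD arrays under the filter level, with a summed signal of 6088 and 6449 with ICD, 18873 with HMM and 33977 with DBM. Of 10 ionocyte copies 8 fell, 3 of them with both ICD arrays under that level, with sums of 1037 and 849 against 9338 and 13148. Of 8 mesoderm copies 1 rose, and the sums were 991 and 1273 with ICD, 490 with HMM and 891 with DBM.

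Of 22 tested epidermal ectoderm copies 3 rose (cldn6.1.S, dlx5.L and foxi4.2.L), 2 fell (grhl3.S and krt12.4.S, the latter 2.71-fold) and 17 did not pass, with sums of 108890 and 78121 with ICD, 79537 with HMM and 87363 with DBM. Among those that did not pass were the homeologs foxi4.2.S at -0.18 and krt12.4.L at -0.15, both near 0. The homeologs cldn6.1.L at 0.64 and grhl3.L at -0.68 did not pass either. Of 5 goblet and small secretory cell copies 2 fell and 0 rose (3 and 1 at an unadjusted limma p under 0.05), with sums of 28903 and 18862 against 22389 and 32571. The fall was 10.7-fold for itln1.L, which encodes a lectin secreted by goblet cells, and 2.75-fold for agr2.L. The brighter copy agr2.S went the other way without passing, at 0.96 ± 0.24 (SE; limma, adjusted p = 0.0954). Its signals were 2798 and 3714 with ICD, 1131 with HMM and 2399 with DBM. Most of each sum came from has1.S, which did not pass (25002 and 13974 with ICD, 15437 with HMM and 16999 with DBM). Of 8 endoderm copies 4 fell and 1 rose, with sums of 697 and 1053 against 1462 and 1463. The endoderm fallers were gata4.S, gata5.S, gata6.S and hhex.L, and gata6.S and hhex.L had both ICD arrays under the filter level. foxa2.L, a forkhead factor gene also known in the floor plate, was the riser, with 292 and 655 with ICD, and its HMM and DBM signals of 8.80 and 23.0 lay under that level. The part of these cell types in the values of tp63.S, vim.L and nectin2.L was not tested.

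The other genes around tp63 were taken as its family with its regulators, and as genes known in mammals as p63 targets. Both lists were chosen with earlier results of these data known, so their counts cannot be set evenly against the shares of all copies. Of 10 tested copies of the first list tp63.S alone passed (1 higher, 0 lower), where 2.22% of 7989 named gene copies rose and 2.58% fell. At an unadjusted limma p under 0.05, 2 were higher and 0 lower. The next in size was mdm4.S, whose product restrains p53, at -0.71 ± 0.30 (SE, limma adjusted p = 0.363). It was followed by tp53bp2.L, a p53-binding protein gene, at 0.69 ± 0.21 (adjusted p = 0.163), and usp7.S, a deubiquitinase gene, at 0.50 ± 0.24 (adjusted p = 0.436). The homeolog tp53bp2.S went the other way without passing, at -0.35. The median was 0.07, and the count of 1 was kept without DBM and without HMM and became 0 in the merged fit without either ICD array.

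Of 15 tested copies of mammalian p63 targets 5 rose, 1 fell and 9 did not pass, where 2.22% of 7989 named gene copies rose and 2.58% fell. At an unadjusted limma p under 0.05, 6 were higher and 2 lower. The risers included 3 copies of distal-less homeobox genes, which act in non-neural ectoderm: dlx6.L had 800 and 725 with ICD, 99.3 with HMM and 158 with DBM (a rise of 5.43-fold; limma, adjusted p = 0.00528), dlx6.S rose 2.85-fold (adjusted p = 0.0172) and dlx5.L 2.15-fold (adjusted p = 0.0368). jag1.L, a Notch ligand gene, rose 3.45-fold (adjusted p = 0.0287), and fgfr2.L was the fifth. grhl3.S, a Grainyhead factor gene of the outer epidermal layer, had 2141 and 1288 with ICD against 3913 and 5288 and fell 2.72-fold (adjusted p = 0.0492), while grhl3.L stood at -0.68 ± 0.23 (adjusted p = 0.219). The list median was 0.49. The junction gene perp.S, a direct p63 target in mouse skin, stood at 0.49 and did not pass (adjusted p = 0.430). The count of 6 became 1 without DBM, 1 without HMM and, in the merged fit, 1 without ICD replicate 1 and 0 without ICD replicate 2 (8 of 15 at an unadjusted limma p under 0.05).

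Around vim.L, 11 copies of intermediate filament genes outside the keratins were tested, of which 3 rose and 0 fell (4 and 0 at an unadjusted limma p under 0.05). Of 7989 named gene copies 2.22% rose and 2.58% fell, but this list too was chosen with earlier results of these data known. Besides vim.L the risers of the list were prph.S, the copy annotated for peripherin, and nes.S, the copy annotated for nestin, both known in neural cells. Both of these passed the filter only through the ICD arrays, with HMM and DBM under the filter level, so vim.L is the 1 riser of the list above that level in every group. nes.S had 155 and 321 with ICD, 32.5 with HMM and 9.75 with DBM (log2 difference 2.69 ± 0.42 SE; limma, adjusted p = 0.0194). prph.S had 185 and 647 with ICD, 15.4 with HMM and 26.2 with DBM (3.26 ± 0.56, adjusted p = 0.0287). In both, the ICD arrays were further apart than for vim.L and ICD replicate 2 was the higher. prph.L stood at 0.94 ± 0.25 (adjusted p = 0.109), and the 6 nuclear lamin copies tested lay between -0.38 and 0.49 and did not pass. The list median was 0.49. The count of 3 became 1 without DBM, 1 without HMM and 0 in the merged fit (4 of 11 at an unadjusted limma p under 0.05), and there 1 without ICD replicate 1 and 0 without ICD replicate 2.

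Around nectin2.L, 23 copies of genes of nectin and cadherin junctions were tested, of which 1 rose, nectin2.L itself, and 0 fell. At an unadjusted limma p under 0.05, 2 were higher and 3 lower. The share called was 4.35%, near the 4.79% of all tested named gene copies, so this count does not set the list apart. nectin1.L, the other nectin tested, had signals of 318 and 227 with ICD, 417 with HMM and 460 with DBM (log2 difference -0.67 ± 0.27 SE; limma, adjusted p = 0.335). The afadin copies afdn.L and afdn.S stood at -0.19 and -0.39, and the afadin-binding copies ssx2ip.S and ssx2ip.L at -0.93 ± 0.36 and -0.65 ± 0.28, with no adjusted p under 0.305. Of the copies annotated for N-cadherin, cdh2.L stood at 0.96 ± 0.34 (limma, adjusted p = 0.237) and cdh2.S at -0.08, also without passing. The C-cadherin copies cdh3.L and cdh3.S stood at 0.29 and 0.36. The list median was -0.08. The count of 1 became 0 with each array left out and with no filter (2 to 7 at an unadjusted limma p under 0.05).

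For each member probe set the gene copies with the most similar pattern were sought among 10293 tested probe sets with a gene name. Likeness was the root mean square difference over the 4 arrays between log2 values centred on the mean of the injected RNAs. For tp63.S by its _at probe set they were krt19.S (0.07), shisa1.1.L (0.08), post.L (0.09), sparc.L (0.10) and epha4.S (0.10). For the _s_at probe set they were krt19.L (0.09), prdm1.S (0.12), zic1.S (0.15), apln.L (0.18) and sparc.S (0.19). The L and S copies of krt19, a type I keratin gene, thus came first for 1 tp63.S probe set each, and copies of sparc, a matrix protein gene, appeared beside both. Both sparc copies, epha4.S and apln.L lay under the filter level on HMM and DBM. Like the _at probe set of tp63.S, they passed the filter only through the ICD arrays and had to be higher with ICD. krt19.S had 19.9 on HMM and 58.7 on DBM, a mean under the filter level, so it too was tested only because ICD was high. krt19.L had 1786 and 2769 with ICD, 244 with HMM and 543 with DBM.

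For vim.L the closest was tfdp2.S, a gene for a dimerization partner of E2F factors, with 1161 and 1161 with ICD, 376 with HMM and 563 with DBM (0.02). It was followed by krt18.3.L (0.05), sort1.S (0.07), phf12.L (0.08) and nrcam.L (0.09), the last of which passed the filter only through the ICD arrays. For nectin2.L they were dtx4.L (0.07), which belongs to the Deltex family of Notch regulators, asb1.L (0.08), tmem51.L (0.09), atp6v1f.L (0.09) and c21orf91.L (0.10). dtx4.L had 816 and 866 with ICD, 321 with HMM and 314 with DBM. Among the members themselves, vim.L and nectin2.L differed by 0.26, and the tp63.S probe sets by 0.31 from each other, by 0.47 and 0.75 from vim.L and by 0.60 and 0.87 from nectin2.L. With 4 arrays many genes share a pattern, and the closest of so many are close by selection.

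**Figure D5:**
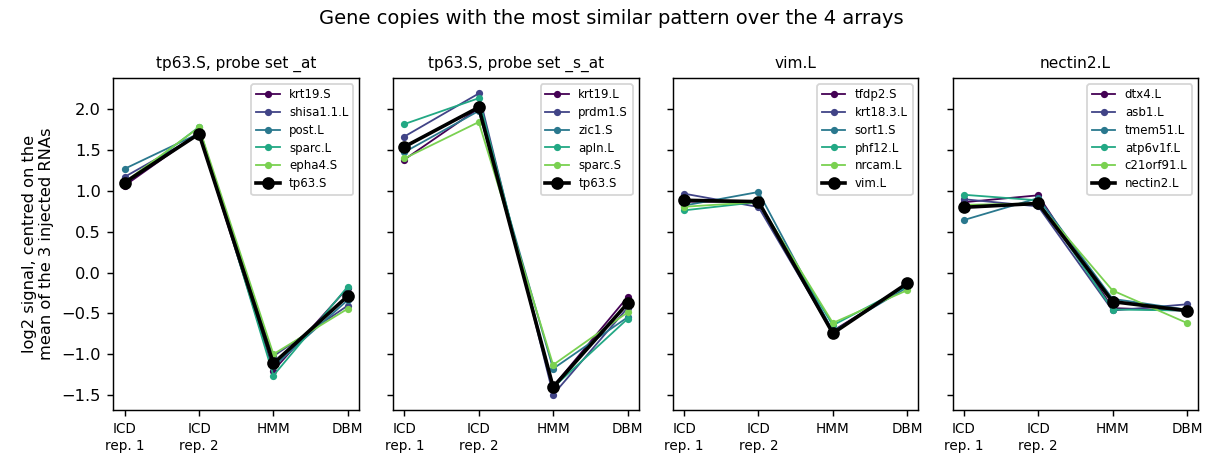
Log2 signal centred on the mean of the 3 injected RNAs (vertical axis) on the 4 arrays (horizontal axis) for each member probe set (thick black line) and the 5 gene copies most like it (coloured lines). The tp63.S lines have ICD replicate 2 above replicate 1 and HMM lowest, vim.L is level over the ICD arrays with HMM lowest, and nectin2.L has HMM and DBM nearly level.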

How the data were processed

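Affymetrix arrays of biotin-labelled cRNA were used, 1 per sample, per the labels. Each deposited value is the MAS5 signal of a probe set, a linear intensity, per the submitters' processing notes, and the MAS5 version is not given in the sources used here. Detection calls were not used here. Symbols were taken from GEO's platform annotation and brought up to date over Entrez IDs with RefSeq's table for assembly Xenopus_laevis_v10.1, which held 99.3% of the single identifiers. Of 32635 probe sets 96 controls were set aside.

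Because the 2% trimmed means differed by over 5%, each array was rescaled to their mean. Signals became log2(signal + 17.99), where 17.99 is 0.25 times their median after rescaling, and probe sets under the 40th percentile of mean signal were left out. limma 3.58.1 in R 4.3.3 fitted 1 mean per injected RNA and a variance trend on intensity. Tests were two-sided, adjusted by Benjamini-Hochberg over all 19523 probe sets. Only the ICD pair gives a residual degree of freedom (1), beside 5.82 prior ones, so DBM and HMM are assumed to vary like ICD. The number of arrays limits the precision. Gene copies in lists are represented by their brightest probe set.

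The members and lists were chosen with earlier results of these data known. Named were the members and homeologs, and in each of the 5 lists of related genes the copies past the threshold and the 4 with the largest differences. For each member the 5 gene copies of most similar pattern were also named, symbols starting with LOC, MGC or XB left out. Further names were added after their values were seen: perp.S, grhl3.L, tp53bp2.S, afdn, cdh3, cdh2.S, ssx2ip.L, cd44.L, dag1 and itgb1 copies, and cdh1.S. The copies named in the neural, ectoderm, goblet and endoderm lists were added in the same way. The alternatives were other scalings, offsets, filters, a variance without trend, DBM and HMM merged into 1 group, and each array left out. A limma contrast of DBM with HMM was added after the data were seen. The pipeline was tested on simulated data. Plots used matplotlib 3.10.9 (Python 3.11.15).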

Additional observations from a re-analysis of the deposited data

How the results depend on the processing

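All 4 member probe sets kept their direction under every alternative run, and the share of all probe sets that did so was not counted. The _at probe set of tp63.S passed the filter only through the ICD arrays, so its direction and its calls are no support here either. Against HMM, and in the fit without DBM, the filtered calls of the _s_at probe set are no support for the same reason. The call of tp63.S by its _s_at probe set was kept in 9 of 12 settings, vim.L in 6 of 12, nectin2.L in 5 of 12 and tp63.S by its _at probe set in 5 of 11, the filter at the 60th percentile having left that probe set out. On deposited signals without rescaling 0 of 19527 probe sets passed limma (132 at an unadjusted p under 0.05) and the median of all tested probe sets was -0.67, 0.65 below its main value. There vim.L stood at 0.60, nectin2.L at 0.53, tp63.S at 1.65 (_at) and 2.07 (_s_at), and vim.S at -0.0013. All 5 lists of related genes then had 0 calls (0 or 1 at an unadjusted p under 0.05). With no filter nectin2.L kept its 1.23 without passing, and the basal, p63 target and junction counts were 3, 3 and 0. Without the intensity trend vim.L (1.32) and nectin2.L (1.23) did not pass, and the basal, p63 target, filament and junction counts were 2, 2, 1 and 0. With DBM and HMM merged into 1 group vim.L (1.32) and the _at probe set of tp63.S (2.10) did not pass, 411 probe sets were called in place of 768, and the filament count was 0. Counting every probe set of a copy gave 2 calls in the p53 family list, both of tp63.S, and added a fall of gadd45a.S to the p63 targets. Without DBM or HMM the differences ran from 1.01 to 1.62 for vim.L, 1.18 to 1.29 for nectin2.L, 1.69 to 2.52 (_at) and 2.16 to 3.19 (_s_at) for tp63.S, and the count of probe sets from 324 to 424. In the merged fit, dropping ICD replicate 1 or 2 gave 1.31 and 1.32 for vim.L, 1.26 and 1.21 for nectin2.L, 2.38 and 1.81 (_at) and 2.91 and 2.44 (_s_at) for tp63.S, and counts of 153 and 62. With an array left out the list counts ran from 0 to 3 (basal), 0 to 1 (p53 family), 0 to 1 (p63 targets), 0 to 1 (filaments) and were 0 throughout (junctions). The fits with an array left out rest on fewer arrays, and the causes of the lost calls were not tested. Against HMM, vim.L was lost in 3 of 7 settings, and tp63.S in 4 of 6 by its _at and 1 of 7 by its _s_at probe set. Against DBM and HMM alone the counts of calls fell from 452 and 340 to 220 and 224 with no filter and to 223 and 170 without the intensity trend. No paired analysis was possible because the groups share only replicate number 1.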

Other observations

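In the junction and ectoderm lists cdh1.S, the copy annotated for E-cadherin, split the arrays in a way that crosses the injected RNAs. Its single probe set had signals of 2148 on ICD replicate 1 and 1246 on HMM, against 74.2 on ICD replicate 2 and 91.5 on DBM. The difference of ICD from the mean of DBM and HMM was 0.26 ± 1.26 (SE) and did not pass (limma, adjusted p = 0.984). Over the 19523 tested probe sets, 11 had ICD replicate 1 and HMM both at least 8-fold above ICD replicate 2 and DBM on the log2(signal + 17.99) scale, and 7 had the opposite split. The 3′ to 5′ ratio of the gapdh control was also higher on ICD replicate 1 (1.93) and HMM (1.61) than on ICD replicate 2 (1.30) and DBM (1.29), while those of ef1a and actin did not split this way, and the part of RNA quality in the split was not tested. The labels name no clutch, batch or date that pairs these arrays.

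The _at probe set of gadd45a.S that fell when every probe set was counted (-1.21 ± 0.22 SE, adjusted p = 0.0345) stood beside another probe set of the same copy, brighter and not past the threshold, at 1.30 ± 0.33 (adjusted p = 0.0988). The brightest of its 4 tested probe sets stood at -0.02.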
